A study of Mus musculus with 2 samples.

Results

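The genes described here encode the machinery of synaptic vesicle release. They were taken by name from a list of 39 symbols, all of which were found in GENCODE M21 among 21938 protein-coding genes. The list holds 8 synaptotagmins that bind calcium, 4 that do not, 7 SNARE proteins, 3 complexins, 10 vesicle membrane and tethering proteins and 7 active zone and priming proteins. Open chromatin at these genes was mapped by DNase-seq, which cuts nuclei with DNase I and sequences the ends of the freed fragments, in midbrain of newborn mice (age 0 days, strain B6NCrl, a pool of males and females, no allele or treatment named). There was 1 group of 2 biological replicates. Both biosamples trace to 1 donor entry, so nothing beyond the replicate numbers shows that the animals differed. The linked protocol is named for nuclei of cultured cells with crosslinking, while the material is labelled as tissue. With 1 group there was no contrast between conditions, and all values below are descriptions without a test.

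At a synapse, vesicles filled with transmitter are held in the nerve terminal by proteins such as synapsins and Rab3 proteins. The vesicles are docked at the active zone by scaffolds such as RIM, Bassoon and Piccolo. They are primed by the Munc13 proteins that the Unc13 genes encode. Fusion is driven by SNARE proteins on the vesicle and on the cell membrane, which zip together, and complexins and synaptotagmins make it wait for calcium. Many genes of this kind carry an RE1 element, the binding sequence of the repressor REST, which keeps neuronal genes silent in other cells.

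Replicate 1 gave 228203 usable peaks and replicate 2 gave 122593. Each peak carried a whole-number signal from the authors, with a median of 44 in replicate 1 and 18 in replicate 2. This signal was not scaled between libraries, so it is read only within a library. The read depth is unknown. Promoters of neuron markers were open in both libraries for 6 of 6 genes and of midbrain markers for 5 of 6, with Pax7 open in replicate 1 alone. Promoters of microglia, endothelium and liver markers were open in both for 0 of 4, 0 of 3 and 0 of 3 genes. The astrocyte and radial glia list and the oligodendrocyte list were each open in both for 3 of 4 genes. Forebrain and hindbrain patterning genes were open in both for 1 of 4 and 1 of 3 genes. The share of all protein-coding genes counted in the same way was 61.0%, and each of these lists is short. The part of other cell types in the values below was not tested.

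The sequences shown first are those on which the promoter and motif results turn, read from the RefSeq copy of mm10. The stretches just before the start of Snap25, which encodes a SNARE protein of the nerve terminal membrane, and of Syn1, which encodes the vesicle-tethering protein synapsin I, were open in both libraries. Capitals mark a cyclic AMP response element (TGACGTCA), SP/KLF boxes (GGGCGG on either strand) and, in Syn1, an RE1 match with 1 mismatch. Rab3a encodes a vesicle GTPase and had the highest promoter signal of the list in replicate 1. None of the motifs searched lay in its stretch.
Snap25 (chr2:136713336-136713452, plus strand, before the start): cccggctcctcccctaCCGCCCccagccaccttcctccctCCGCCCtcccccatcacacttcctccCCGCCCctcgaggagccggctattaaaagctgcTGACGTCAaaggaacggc
Syn1 (chrX:20921005-20921165, minus strand, before the start): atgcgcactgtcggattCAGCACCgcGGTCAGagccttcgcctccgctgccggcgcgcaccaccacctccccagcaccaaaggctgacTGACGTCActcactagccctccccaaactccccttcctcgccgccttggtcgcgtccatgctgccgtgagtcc
Rab3a (chr8:70754496-70754665, plus strand, before the start): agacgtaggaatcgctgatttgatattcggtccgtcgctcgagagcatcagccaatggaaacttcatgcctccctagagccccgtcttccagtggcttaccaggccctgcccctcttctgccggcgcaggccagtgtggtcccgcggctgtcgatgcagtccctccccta

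The second set lies away from the start sites. The Snap25 stretch is the end of an open region within 1 kb of its start, in an intron, and holds a pair of exact RE1 matches, and the Syt6 region, upstream of a calcium-binding synaptotagmin, holds another. The Syn3 region was the strongest shared distal region by both libraries together of the gene with the most of them, and its capitals mark a match to the CTCF consensus. The Rab3c and Syt3 regions were among the 3 strongest shared distal regions of the list, ranked over both libraries, and held none of the motifs searched. The CTCF consensus was searched without mismatches, and a stretch of the Rab3c region differed from it by 1 letter.
Snap25 (chr2:136714230-136714405, plus strand, intron): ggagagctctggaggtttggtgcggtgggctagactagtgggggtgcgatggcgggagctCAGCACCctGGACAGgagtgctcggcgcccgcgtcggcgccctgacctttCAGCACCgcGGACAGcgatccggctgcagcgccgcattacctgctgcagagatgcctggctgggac
Syt6 (chr3:103573916-103574085, plus strand, upstream): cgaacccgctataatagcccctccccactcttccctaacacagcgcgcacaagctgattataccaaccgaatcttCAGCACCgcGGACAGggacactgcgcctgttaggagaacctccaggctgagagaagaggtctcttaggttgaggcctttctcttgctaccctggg
Syn3 (chr10:86463896-86464065, minus strand, intron): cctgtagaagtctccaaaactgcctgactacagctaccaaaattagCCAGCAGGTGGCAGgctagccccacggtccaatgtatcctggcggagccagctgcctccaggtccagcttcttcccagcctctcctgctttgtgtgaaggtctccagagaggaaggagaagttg
Rab3c (chr13:110062876-110063025, minus strand, intron): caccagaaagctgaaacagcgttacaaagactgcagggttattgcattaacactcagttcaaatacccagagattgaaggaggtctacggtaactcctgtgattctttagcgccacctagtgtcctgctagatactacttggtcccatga
Syt3 (chr7:44405756-44405945, plus strand, downstream): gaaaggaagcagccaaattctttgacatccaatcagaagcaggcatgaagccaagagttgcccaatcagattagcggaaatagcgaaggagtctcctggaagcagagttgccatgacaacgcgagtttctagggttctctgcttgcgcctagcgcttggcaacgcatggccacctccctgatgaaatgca

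Each of the 39 listed release genes had an open promoter in this newborn tissue. A peak lay within 500 bp of an annotated transcription start site (TSS) in replicate 1 for 39 of 39 genes, against 68.9% of all protein-coding genes. In replicate 2 it did so for 39 of 39, against 62.6%. A region holding a peak of each library, here called shared, lay there for 39 of 39, against 61.0%. The wider intervals called hotspots gave the same count, 39 of 39 shared against 62.1%. Neither the 36 neuronal genes nor the 3 widely used paralogues (Snap23, Snap29 and Vamp3) had a member without a shared promoter region. Presence of a promoter peak therefore did not separate neuronal from widely used members.

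Promoter strength did vary between members. The strongest start-site peak of a member had a median signal of 108 in replicate 1 (range 47 to 146) and 49 in replicate 2 (14 to 80). It was taken over all starts of a gene in each library separately, so the values of a gene in replicates 1 and 2 can belong to different peaks. The medians over all protein-coding genes with such a peak were 115 and 55. In each library 16 of 39 members lay above the median of all genes, so the promoters of the list as a group were not stronger than those of other open genes. The order of the members was similar in the libraries, with a Spearman correlation of 0.898 over the 39 genes, which share library and gene-specific sequence. In bulk tissue, a site open in few cells and a site partly open in many cannot be told apart.

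**Figure D1:**
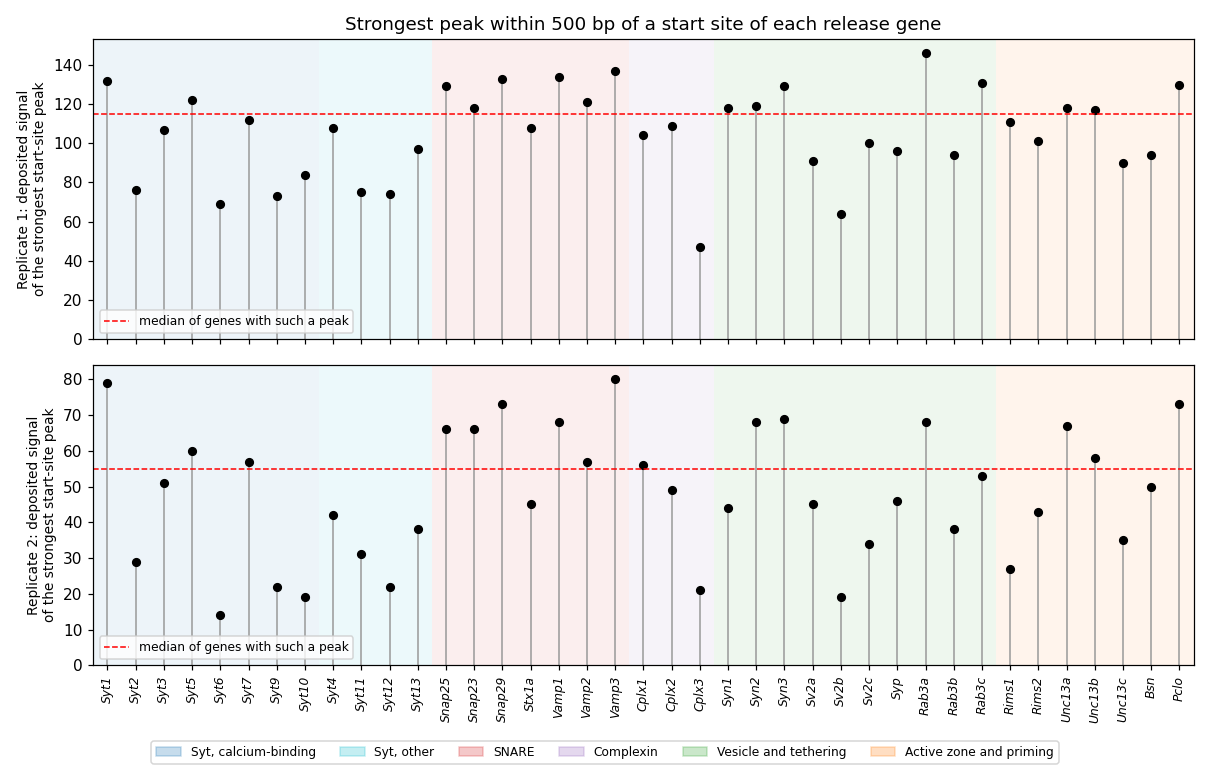
Deposited signal of the strongest peak within 500 bp of a start site, for each of the 39 genes in replicate 1 (top) and replicate 2 (bottom), shaded by role; the dashed line is the median of all protein-coding genes with such a peak, 115 and 55. Syt6, Syt9, Syt10, Sv2b and Cplx3 sit low in both panels, and Syt1, Vamp3, Snap29, Rab3a and Pclo sit above the line in both.

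Among the synaptotagmins that bind calcium, Syt1, the main fast calcium sensor of forebrain synapses, had a promoter signal of 132 in replicate 1 and 79 in replicate 2. That put it at percentiles 79.8 and 94.8 of open coding genes. Syt2, the fast sensor of hindbrain and spinal synapses, had 76 and 29. Syt9, a further fast sensor, had 73 and 22. Thus the fast sensors were far apart in promoter signal, with Syt1 above Syt2 and Syt9 in both libraries. Syt7, a slow sensor of high affinity, had 112 and 57, close to the median of all genes in each library. These values came from neighbouring shared regions, one with 112 and 39 and the other with 90 and 57. Syt3 had 107 and 51, and Syt5 had 122 and 60. The lowest signals of this family were those of Syt6, at 69 and 14. Syt10, which acts in growth factor secretion, had 84 and 19, which was next to lowest in replicate 2 but above Syt9 and Syt2 in replicate 1. At Syt6 the hotspot was also weak, with a −log10 q of 5.70 and 1.45, where 100 is the strongest class.

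The 4 synaptotagmins that do not bind calcium had promoter signals below the medians of all genes in both libraries. Syt4, a protein of dense-core vesicles, had 108 and 42. Syt13 had 97 and 38. Syt11 had 75 and 31, and Syt12 had 74 and 22. Their signals thus ran from 74 to 108 and from 22 to 42.

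The SNARE genes had the highest median promoter signals of the role groups, 129 in replicate 1 and 66 in replicate 2. Snap25 had 129 and 66, and its widely used paralogues Snap23 and Snap29 had 118 and 66, and 133 and 73. Vamp1 and Vamp2, the vesicle SNARE genes of neurons, had 134 and 68, and 121 and 57, while the widely used Vamp3 had 137 and 80. Stx1a, which encodes the syntaxin of the nerve terminal, had the lowest values of the group, 108 and 45. Within the SNAP family Snap25 lay between its paralogues in replicate 1 and tied with Snap23 in replicate 2, and within the VAMP family Vamp3 was highest in both libraries. Over all members, the 3 widely used genes had medians of 133 and 73, and the 36 neuronal genes had 107.5 and 45.5, with ranges that overlap. The open region at the Snap29 start also covered the start of Pi4ka, a kinase gene, which was the case for 1 of the 39 members.

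The complexins, which clamp and promote SNARE assembly, were unlike each other. Cplx1 had a promoter signal of 104 and 56, and Cplx2 had 109 and 49. Cplx3, known from ribbon synapses of the retina, had 47 and 21, with a hotspot −log10 q of 2.59 and 2.23. Its signal was the lowest of the 39 genes in replicate 1 and lay at percentiles 9.42 and 9.55 of open coding genes.

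Among vesicle and tethering genes, the synapsin genes Syn1, Syn2 and Syn3 had promoter signals of 118 and 44, 119 and 68, and 129 and 69. Sv2a, the vesicle glycoprotein bound by the antiepileptic drug levetiracetam, had 91 and 45. Its relatives Sv2b and Sv2c had 64 and 19, and 100 and 34. Sv2b was thus the weakest of the SV2 genes in both libraries. Syp, which encodes the vesicle protein synaptophysin, had 96 and 46. Rab3a had 146 and 68, Rab3b had 94 and 38, and Rab3c had 131 and 53, so that the order of the Rab3 genes was the same in both libraries.

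At the active zone, the scaffold gene Pclo had 130 and 73 and its relative Bsn had 94 and 50. The Munc13 genes Unc13a and Unc13b had 118 and 67, and 117 and 58. The third, Unc13c, had 90 and 35, below both in each library. The products of Rims1 and Rims2 bind Rab3 and calcium channels. Rims1 had 111 and 27. Rims2 had 81 and 43 at its first start, and 101 and 34 at a start 461 kb downstream. Rims1 was above both of these Rims2 starts in replicate 1 and below both in replicate 2. Its shared region at the start was 270 bp wide and its hotspot reached 100 in replicate 1 but 6.0 in replicate 2. Hotspots with 100 in replicate 1 and still lower replicate 2 values were those of Syt9 (2.08), Sv2b (2.21), Syt10 (2.24), Syt12 (4.96) and Syt13 (5.7).

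Many members have several annotated starts, and most of the later ones had no peak. TSSs of a gene were grouped into start clusters where neighbours lay within 500 bp. There were 105 clusters, of which 52 had a shared region, 11 a peak of replicate 1 alone and 42 no peak. The first cluster of the gene was shared in 37 of 39 members, against 55.8% of all coding genes. Among the 66 later clusters, 15 were shared (22.7%, against 14.4% of the later clusters of all coding genes) and 42 were closed (63.6%, against 75.2%). Of the 27 later clusters with a coding transcript, 10 were shared (37.0%, against 24.1%).

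**Figure D2:**
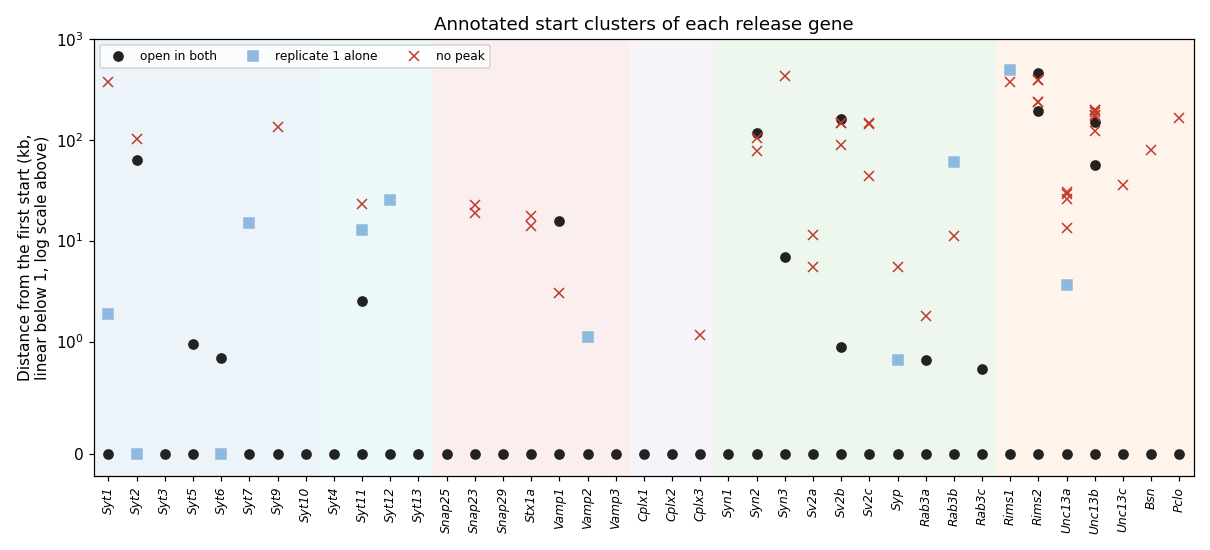
Start clusters of each gene by distance from its first start (kb, linear below 1 and on a log scale above), marked as open in both libraries, in replicate 1 alone, or without a peak. The bottom row shows the first starts, shared in 37 of 39 genes; Syt2 and Syt6 are the exceptions, open there in replicate 1 alone.

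Syt2 and Syt6 were the members whose first start was open in replicate 1 alone. At Syt2 the first start had a signal of 52 in replicate 1 and no peak in replicate 2, and a coding start 62.6 kb downstream had 76 and 29. At Syt6 the first start had 69 in replicate 1, and a start 0.85 kb away had 49 and 14. Later starts with a stronger peak than the first were also seen at Syt11, where a start 2.55 kb downstream had 75 and 31 and the first 50 and 19. At Rab3c a start 0.751 kb downstream had 131 and 53, against 86 and 36 at the first. Rims2 had coding starts open in both libraries at 194 kb (72 and 27) and 461 kb (101 and 34) from its first start. Unc13b had open starts at 56.2 kb (71 and 36) and 151 kb (64 and 24), the second with a coding transcript. By contrast the later coding starts of Bsn at 80.0 kb, Pclo at 166 kb, Unc13c at 35.4 kb and Sv2c at 43.7 kb had no peak in either library. Rims2 also had a coding start without a peak at 239 kb, and Unc13b had such starts at 122 and 197 kb. The later coding starts of Unc13a at 13.2 and 25.8 kb and of Rims1 at 373 kb likewise had no peak. A coding start of Rims1 at 490 kb had a peak in replicate 1 alone (28). Internal starts were therefore open at some of these genes and closed at others, and Rims2 and Unc13b had both kinds.

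Distal open regions, those with a midpoint over 500 bp from any TSS, were common around release genes. A domain was taken as the gene body and the 10 kb flanking it at either end. At least 1 shared distal region lay in the domain of 38 of 39 members, against 63.3% of all coding genes, and at least 3 lay in 24 of 39, or 61.5%, against 26.1%. The median was 3 per member, 1 over all coding genes and 2 over coding genes with an open promoter. Members are long genes, with a median domain of 79.5 kb against 37.4 kb. Per 100 kb of domain the medians were 3.60 for members, 2.26 for all coding genes and 3.04 for those with an open promoter, so the gap was smaller per length than in counts. Against coding genes whose domain was within a factor of 2 in length, 23 members had more shared regions than the median, 7 had fewer and 9 had the same number. The genes of similar length were taken from all coding genes, with an open promoter or not, while each member had an open promoter.

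**Figure D3:**
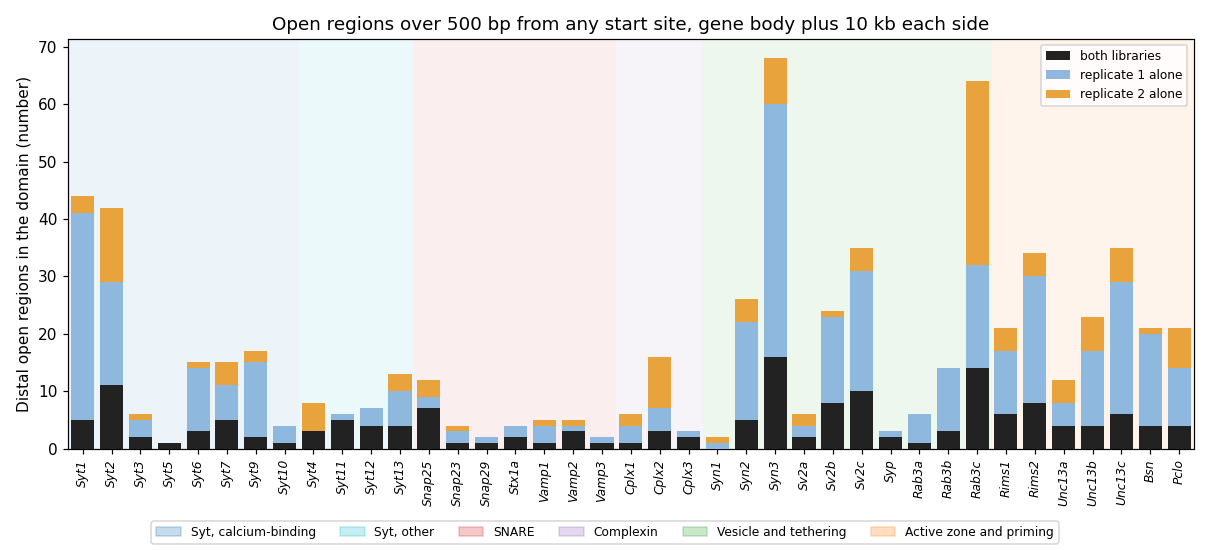
Number of distal open regions in the domain of each gene, split into those open in both libraries, in replicate 1 alone and in replicate 2 alone. Shared regions run from 0 at Syn1 to 16 at Syn3, and Rab3c has 32 regions of replicate 2 alone.

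The gene with the most shared distal regions was Syn3, with 16 in a domain of 464 kb, against a median of 7 for genes of like length. They were all intronic and carried signals of 46 to 101 in replicate 1 and 9 to 49 in replicate 2. For 6 of them the nearest coding start was that of Timp3, a protease inhibitor gene lying inside Syn3, and not that of Syn3. Rab3c followed with 14 in 247 kb (median of like genes 5), and Syt2 with 11 in 136 kb (median 3). The Syt2 regions lay along the gene from 9.80 kb before its first start to 78.8 kb after it, and the region at 58.4 kb had the highest replicate 2 signal of them, 40, with 65 in replicate 1. Syt2 thus had a weak first start but lay at percentile 97.6 of genes of similar length in shared distal regions.

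Sv2c had 10 shared distal regions and Sv2b had 8, each against a median of 4. The strongest of Sv2c in replicate 1, with signals of 102 and 30, lay 1.36 kb inside the gene. Rims2 also had 8, which equalled the median of 8 for genes of its length. Snap25 had 7 in a domain of 89.0 kb, against a median of 2, and 5 of these lay within 2.27 kb of its start. Of those 5, the intronic one centred 0.758 kb from the start, with 78 and 30, had the highest signals and is the one that holds the RE1 pair printed above. Rims1 and Unc13c had 6 each and Syt1 had 5, in domains of 540, 510 and 533 kb, all below the median of 8. Syt7, Syt11 and Syn2 also had 5, against medians of 2, 1 and 3.

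**Figure D4:**
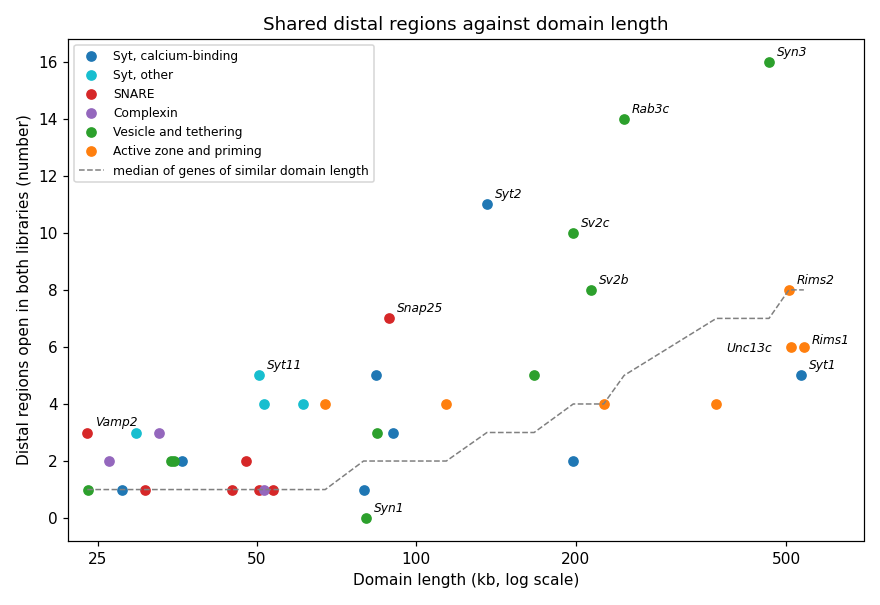
Shared distal regions against domain length (kb, log scale) for the 39 genes, coloured by role; the dashed line joins the median of genes of similar domain length for each member. Syn3, Rab3c, Syt2, Sv2c, Sv2b and Snap25 lie well above the line, and Syt1, Rims1, Unc13c and Syn1 lie below it.

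Density differed between role groups, but so did domain length. The synaptotagmins that do not bind calcium had 6.56 to 10.1 shared distal regions per 100 kb, above the overall median of 2.26 for each of the 4. The complexins had a median of 7.61. The active zone genes had 1.09 to 5.94 with a median of 1.58. Median domains of these groups were 51.0, 32.6 and 369 kb. Among all coding genes of similar length, with an open promoter or not, their median percentiles were 93.0, 85.5 and 52.0. By that measure the active zone genes were near the middle. Vamp2, whose gene spans 3.90 kb, had the highest density, 12.6, from 3 regions. All 3 lay downstream, and for each the nearest coding start was that of the circadian gene Per1, with 2 of them inside Per1. The widely used Snap23, Snap29 and Vamp3 had 1 shared distal region each, at the median of 1 for genes of their length. Each of those 3 regions lay inside another coding gene, Lrrc57, Pi4ka and Camta1. Their close neuronal paralogues had 7 at Snap25, 1 at Vamp1 and 3 at Vamp2. Neuronal members had a median of 4 and widely used members a median of 1, in domains with medians of 82.3 and 44.8 kb. Per 100 kb of domain the medians were 3.95 and 2.23, a smaller gap than in counts. However, Vamp1, Syt5, Syt10, Rab3a and Cplx1 were neuronal members that also had 1. Syn1 was the single member with 0. A region of replicate 1 alone (signal 25) and a region of replicate 2 alone (signal 8) were the only distal regions in its 80.5 kb.

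In all, 165 shared distal regions lay in the 39 domains, and none was counted in 2 domains. Of these, 116 (70.3%) were intronic, 8 exonic, 24 upstream and 17 downstream. Gene bodies held 75.2% of the shared regions and made up 86.3% of the domain length, so regions were denser in the flanks than in the bodies. These shares pool all domains, so the longest genes weigh most in them. The nearest coding start was that of the member itself for 130 of the 165 (78.8%), and 9 lay inside another coding gene. Their median signal was 69 in replicate 1 and 22 in replicate 2, against 67 and 22 for all shared distal regions of the genome. By signal, then, they were ordinary distal sites.

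A few were strong. The strongest in both libraries lay downstream of Syt3, 21.7 kb from its 5′ end, with signals of 137 and 81, the former at percentile 99.9 of the shared distal regions of the genome. These signals exceeded those of the Syt3 promoter itself, 107 and 51. A region upstream of Syt5 had 117 and 57, and the intronic Rab3c region printed above, 218 kb into the gene, had 112 and 66. An exonic region of Unc13a had 115 and 44, and an intronic one of Syt11 had 114 and 45, which is also more than the 75 and 31 of its strongest start. Of these 5 regions, that of Syt11 was the one whose nearest coding start was the member's own. The nearest coding start was that of 1700008O03Rik for the Syt3 region, of Pde4d for the Rab3c region and of Colgalt1 for the Unc13a region, and the Syt5 region lay inside Ptprh, which also had the nearest start.

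Regions of 1 library alone outnumbered shared ones. Member domains held 354 distal regions of replicate 1 alone and 133 of replicate 2 alone. Of all distal regions of replicate 1 in these domains 31.8% were shared (95% Wilson interval 27.9 to 35.9, counting error only), against 28.0% over the genome. For replicate 2 the share was 55.4% (49.7 to 60.9), against 62.0%. Rab3c moved this value. It held 32 regions of replicate 2 alone, and without it the share was 59.9% (53.8 to 65.8). Without Rab3c and Cplx2 it was 61.7% (55.4 to 67.6).

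The replicate 2 regions of Rab3c and Cplx2 were arranged in rows. At Rab3c, 13 of them followed each other across 5.49 kb of intron (chr13:110186996-110192485) with signals of 3 to 8. At Cplx2, 6 lay across 2.57 kb upstream (chr13:54361536-54364105) with signals of 4 to 7. All of these signals were below the lower quartile of 12 of the replicate 2 list, and replicate 1 had no peak at any of them. A row in replicate 1 was found at Syn3, where 5 regions of replicate 1 alone lay within 1.51 kb with signals of 31 to 88. The rows thus differed in strength, and those of replicate 2 were made of peaks that were weak for that list.

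**Figure D5:**
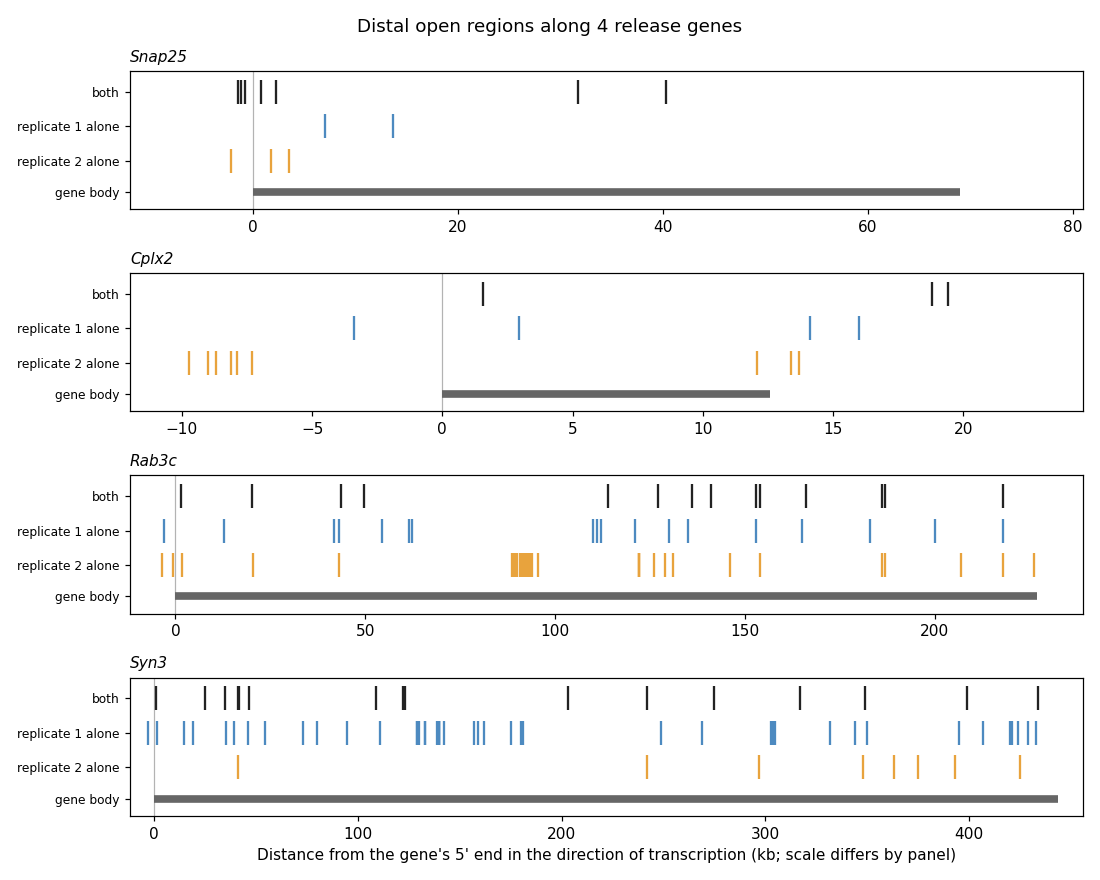
Distal open regions along Snap25, Cplx2, Rab3c and Syn3 by distance from the 5′ end of the gene (kb, one scale per panel); each tick is a region, open in both libraries, in replicate 1 alone or in replicate 2 alone, and the bar is the gene body. Most shared Snap25 regions crowd at the start, those of Syn3 are spread along the gene, and the row of 13 replicate 2 regions stands near 90.7 kb in Rab3c.

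The RE1 element was searched as CAGCACC, 2 bases of any kind and GGACAG, on both strands. Exact matches lay in the domains of 7 of 39 members (17.9%), against 2.30% of all coding genes, or 1.40 against 0.367 matches per Mb of domain. With up to 1 mismatch, 20 members (51.3%) had a match, against 19.6%, but per Mb the values were 4.38 and 3.79. Per Mb the difference was thus larger for exact matches than for the set with up to 1 mismatch. That set includes the exact matches, and matches with exactly 1 mismatch were not compared alone. The members with an exact match were Syt2, Syt4, Syt6, Syt7, Syt9, Syp and Snap25, the last with a pair. Those outside Syt4 are shown with the 13 searched letters in capitals.
Syt2 (chr1:134665007-134665021, plus strand): CAGCACCacGGACAG
Syt7 (chr19:10403283-10403297, plus strand): CAGCACCaaGGACAG
Syt9 (chr7:107392961-107392975, minus strand): CAGCACCacGGACAG
Syp (chrX:7638739-7638753, plus strand): CAGCACCgtGGACAG
Snap25 (chr2:136714290-136714304, plus strand): CAGCACCctGGACAG
Snap25 (chr2:136714340-136714354, plus strand): CAGCACCgcGGACAG
Syt6 (chr3:103573991-103574005, plus strand): CAGCACCgcGGACAG

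Most RE1 matches were not in open regions, but the same share over all coding genes was not counted. The counts below therefore do not show whether matches of members were open more or less often than others. Of the 25 matches with up to 1 mismatch, 4 lay inside a shared region (both Snap25 copies, Syt6 and the Syn1 promoter match) and 21 in no region of either library. Of the 8 exact matches, 3 lay in a shared region. Of the remainder, the Syp copy was 81 bp and the Syt4 copy 126 bp from the edge of a shared region, and those of Syt2, Syt7 and Syt9 were 11069, 7785 and 22083 bp away. A match is a run of letters and does not show that REST was bound.

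Other motifs were counted in the central 150 bp of regions. SP/KLF boxes lay in 48.6% of the 70 shared promoter regions of members, against 42.7% of all shared promoter regions. The cyclic AMP response element lay in 2 of the 70, those of Snap25 and Syn1 (2.86%, against 2.27%), and the NRF1 motif (GCGCATGC) in 3 (4.29%, against 3.27%). In the 165 shared distal regions the CTCF consensus was found in 9.09%, against 13.5% of all shared distal regions, and the E-box CAGATG in 13.3%, against 15.2%. RE1 with up to 1 mismatch lay in the central 150 bp of 0 of the 70 promoter regions, against 0.251% of all, and of 1 of the 165 distal regions (0.606%, against 0.242%). The distal region counted was that of Syt6. The Syn1 promoter match and the Snap25 pair lay in their shared regions but reached outside the central 150 bp, so they were not counted here. These motif counts are small, and the density of exact RE1 copies given above was counted over whole domains, not over open regions.

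RefSeq promoters, which cover 250 bases before to 50 after a start whether it was open or not, were given for 29 of the 39 genes, with 38 promoters. SP/KLF boxes lay in 25 of the 38 (65.8%), against 35.7% of all RefSeq promoters. The E-box lay in 2 of the 38 (5.26%), those of Pclo and Syn2, against 17.2%. RE1 with up to 1 mismatch was found at Syn1 alone, against 0.186% of all, and NRF1 motifs in 3 of the 38 (7.89%, against 2.71%). These shares were not tested, and the full RefSeq set also holds promoters that were closed here.

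The observed-to-expected CpG ratio was taken in 500 bp around the 5′ end of each gene, while promoter signal could come from a later start. The Spearman correlation between them was 0.18 in each library over 39 genes. At genes such as Syt2, Rab3c and Rims2 the paired values come from different starts. The correlation therefore cannot show whether signal tracked CpG content at the same promoter. The highest observed-to-expected CpG ratios were 1.03, at Syt7 and Vamp3, and Syt9 had 0.996 with one of the weaker promoter peaks. Syt1, with a ratio of 0.336, had a strong one. Rab3c had a ratio of 0.364 at its 5′ end, but its strongest peak lay at a later start with a ratio of 0.643. The ratio was 0.781 to 1.03 at the widely used genes, with a median of 0.922 against 0.714 at the neuronal genes.

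A further list of release genes outside the 39 was read in the same way. Of 27 neural ones, 25 had a shared promoter region, against 61.0% of all coding genes. Cplx4, a complexin of retinal synapses, and Syt15 had no promoter peak in either library. Nsf, which takes SNARE complexes apart, had a promoter signal of 121 and 57. Of 8 widely used ones, 7 had a shared promoter region, against the same 61.0%. Vamp8, a SNARE gene of secretory and blood cells, had a peak of 36 in replicate 1 alone. The most shared distal regions of this list were 16 at Erc2, an active zone scaffold gene, 14 at Syt16 and 9 at Ppfia2. Their domains were 876, 296 and 486 kb, and the medians of genes of like length were 10, 5 and 8.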

How the data were processed

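DNase-seq peaks and hotspots of 2 midbrain libraries were deposited per replicate on mm10. The sources used here do not give the aligner, the caller, the depth or the definition of the peak signal. Peaks are 150 bp wide, and their signal, as deposited by the authors, is unscaled between libraries. A display score deposited with each hotspot was not used. Hotspots carry a −log10 q as deposited by the authors, with 100 as the strongest class. Intervals off chromosomes 1 to 19, X and Y (215 and 221 peaks) and repeated positions (22 and 24) were removed, which left 228203 and 122593 peaks and 206454 and 111394 hotspots.

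Overlapping or touching peaks of the libraries (minimum 1 bp) were merged into regions, and a region with a peak of each was called shared. A region reaching within 500 bp of a GENCODE M21 TSS of a gene was counted at its promoter. A region with a midpoint over 500 bp from any TSS was counted as distal and assigned by midpoint to domains of the gene body plus 10 kb. A region that met both rules was counted in both, such as the 1 shared distal region of Cplx1. Motif counts of promoter regions left out regions that were distal by midpoint. Intervals of shares are 95% Wilson intervals for counting error. Motifs were searched on both strands. Of the further release genes 2 symbols, Stx4 and Vamp7, were not matched and were not analysed. All 39 listed genes may be named, and values are given for the widely used genes and their paralogues and for the genes with the most distal regions. The members and lists were chosen with earlier results of these data known. The counting steps were tested on simulated intervals. The analysis used Python 3.11.15, numpy 2.4.6, pandas 2.3.3, scipy 1.17.1, pysam 0.24.0 and matplotlib 3.10.9. Alternatives changed the promoter window, peak set, overlap, TSS set, domain and grouping.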

Additional observations from a re-analysis of the deposited data

How the results depend on the processing

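Of 65 alternative values, 57 stayed within 1.5 times the value reported. Counts of members with a shared promoter region were 36 to 39 of 39 under all settings run. The share of all coding genes under these settings ran from 55.4% to 68.9%. The lowest, 36, came from a reciprocal overlap of 50%, which lost Rims1, Pclo and Syt10 and called 58.8% of all coding genes. The stronger 50% of each list lost Syt6 and Syt10 (57.8% of all coding genes called), and a window of 100 bp lost Rims1 (56.3%). The gene 5′ end as the only TSS lost Syt2 and Syt6 (55.4%). In the stronger 50% of each list, shared distal regions in member domains numbered 102 in place of 165. With 50 kb on each side of the gene, their number was 308 and the median per domain 7, against 4 for all coding genes. From a single library the number was 300 to 519 and the median 5 to 8, as regions then needed 1 library. With Unc13b, Syt7 and Syt11 counted as widely used, 6 of 6 such genes had a shared promoter region, against 61.0% of all coding genes. Leaving out Rab3c and Cplx2 in the shares of replicate 2 was chosen after seeing the data. No paired analysis was possible because there was 1 group. Depth is unknown, so a region found in 1 library may have been missed in the other.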
